A study of Mus musculus with 4 samples.

Results

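The 10 genes described here are cadherins expressed in developing cortex: the type I genes Cdh2 and Cdh4, the type II genes Cdh6, Cdh8, Cdh9, Cdh10, Cdh11, Cdh12 and Cdh18, and the GPI-anchored Cdh13. They are the rows of the deposited table that carry these gene names, 10 of 22770 genes. Their RNA was measured by sequencing in 4 libraries of brain cortex from mouse embryos at embryonic day 16.5, 2 from Pax6 sey/sey mutants and 2 from wild-type littermates. All animals had a mixed C57BL/6J, 129S6 and CD1 background. Pax6 is a transcription factor gene active in the progenitors of cortex, and its Sey allele is a germline point mutation, so every cell of the mutant embryo carries it. The study it belongs to concerns the making of olfactory bulb interneurons, and the comparison asks how cortex RNA differs when Pax6 is mutant. Whether the 2 libraries of a genotype are separate embryos is not given in the labels. The 2 mutant libraries differed in sex-linked RNA, given below, so they were not made from the same embryo. For the wild types this stays unknown. The p-values measure the spread between these libraries, which may be technical in part.

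Classical cadherins are calcium-dependent adhesion proteins of the cell surface. Their outer domains bind cadherins of the neighbouring cell, mostly of the same or a closely related kind, and their inner tails bind catenins, which link the junction to actin. Type I cadherins form strong junctions such as the belt that joins radial glia at the ventricle, whereas the type II genes mark subsets of cortical layers, areas and nuclei and take part in sorting neurons and choosing synaptic partners. Cdh13, or T-cadherin, has no inner tail and is held in the membrane by a lipid anchor.

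Pax6 RNA itself was 101 and 120 FPKM in the mutant libraries and 28.8 and 27.0 FPKM in the wild types. FPKM divides a gene's fragment count by exon length and by library size, so levels of different genes can be compared. The Sey allele leaves a transcript, and this level does not check the genotype. Column totals lay between 579698 and 593256 FPKM, and relative depth between 0.783 and 1.19 of that of wild-type library 1. Mutant library 1 stood apart in sex-linked RNA, with Xist at 350 FPKM there and at most 0.224 FPKM in the other 3 libraries. Ddx3y, also sex-linked, was at 0 FPKM in mutant library 1 and at 23.3 FPKM in mutant library 2. It was at 17.6 and 16.5 FPKM in the wild types. Markers of glutamatergic neurons of the cortex were present in every library, with a summed level of 536 to 592 FPKM over 7 genes in mutants and 953 to 1039 FPKM in wild types.

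Of the 7 type II genes, 5 form a run on chromosome 15. In GRCm38, from 13028701 to 23474418, the order along chromosome 15 is Cdh6, Cdh9, Cdh10, Cdh12 and Cdh18, with gaps of 3.56, 1.96, 1.44 and 0.959 Mb between neighbours and 0 annotated protein-coding genes in any of these gaps. Cdh8 and Cdh11 are neighbours on chromosome 8, 3.22 Mb apart, also with 0 protein-coding genes between them, and Cdh13 follows 15.5 Mb further on. Cdh4 lies on chromosome 2, 73.7 Mb from Pax6.

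The sequence before the start of the 2 type II genes that passed the test is shown with E-boxes in capitals, since proneural bHLH factors of cortical progenitors bind E-boxes (CANNTG, read on both strands). The stretches come from RefSeq on GRCm38.p6, whose promoter table matched 6 of the 10 genes, and bases that overlap an annotated exon were left out. Cdh10 is shown at chr15:18820079-18820328 and Cdh12 at chr15:21111202-21111333, both on the plus strand:
Cdh10: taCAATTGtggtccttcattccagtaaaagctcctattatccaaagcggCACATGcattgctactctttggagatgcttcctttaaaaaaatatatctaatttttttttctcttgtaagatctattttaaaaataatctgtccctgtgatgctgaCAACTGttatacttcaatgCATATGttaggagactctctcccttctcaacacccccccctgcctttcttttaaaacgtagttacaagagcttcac
Cdh12: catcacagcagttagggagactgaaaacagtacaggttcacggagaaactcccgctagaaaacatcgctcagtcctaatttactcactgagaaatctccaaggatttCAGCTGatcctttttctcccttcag

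The Cdh10 window of 250 bases held 4 E-boxes and the Cdh12 window 1, at position -143 from the start. An E-box was present in 5 of the 6 cadherin windows, and in 66.0% of all 27025 RefSeq windows of that length, so its presence is common. The motif CAGATG, read on both strands, was in 0 of the 6 windows and in 14.5% of all windows. Annotated starts differ for these genes: the Cdh10 window lies inside an intron of a longer annotated transcript, and that of Cdh12 ends at an internal exon of a longer one, whose gene starts at 20449265 in GENCODE M21 and at 21111452 in the deposited table.

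A second pair, Cdh6 and Cdh9, is shown because its windows share the longest run found between any of the 6, in capitals. Cdh6 is on the minus strand at chr15:13173676-13173925 and Cdh9 on the plus strand at chr15:16728665-16728755:
Cdh6: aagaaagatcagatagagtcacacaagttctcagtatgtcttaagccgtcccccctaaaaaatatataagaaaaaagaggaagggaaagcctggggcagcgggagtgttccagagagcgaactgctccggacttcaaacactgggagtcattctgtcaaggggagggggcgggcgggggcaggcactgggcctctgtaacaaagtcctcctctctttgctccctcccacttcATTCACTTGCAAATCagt
Cdh9: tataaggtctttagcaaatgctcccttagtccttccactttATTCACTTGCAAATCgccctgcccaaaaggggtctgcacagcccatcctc

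The run is 15 bases long, begins at position -18 in Cdh6 and -209 in Cdh9, and was found on either strand in 2 of the 27025 RefSeq windows, those of Cdh6 and Cdh9 themselves. These 2 hold it by construction, since it was picked as their longest shared run. Whether such sharing exceeds chance was not tested. It overlaps an E-box, CACTTG. Cdh10 and Cdh12, which passed the test below, shared with each other a longest run of 9 bases.

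Cadherin RNA was lower in Pax6 mutant cortex for 3 of the 10 genes, and the 3 came from both types. Cdh12, Cdh4 and Cdh10 fell and 0 genes rose at an adjusted p under 0.05, from limma on log2(FPKM + 0.5) with Benjamini-Hochberg adjustment over all 15399 genes above a low-value filter, which all 10 cadherins passed. At that threshold 1.46% of all tested genes were lower in mutants and 2.02% higher. At an unadjusted p under 0.05, 6 of the 10 were lower and 0 higher, where 9.23% of all tested genes were lower. Over both directions 2997 of the 15399 tested genes had such a p, and 1422 of them were lower. Counts at an unadjusted p given further on are to be read beside these. The fold change was below 0 for 10 of 10, against 49.9% of all tested genes, and the median was -0.60 on the log2 scale, against 0.00062 over all tested genes. The 10 genes were chosen with earlier results of these data known, so these counts and those below are no test of the family. Of 5 other classical cadherins tested, 4 lay above 0 and 1 below. Cdh22, 1 of those above, passed the filter only through its mutant libraries.

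**Figure D1:**
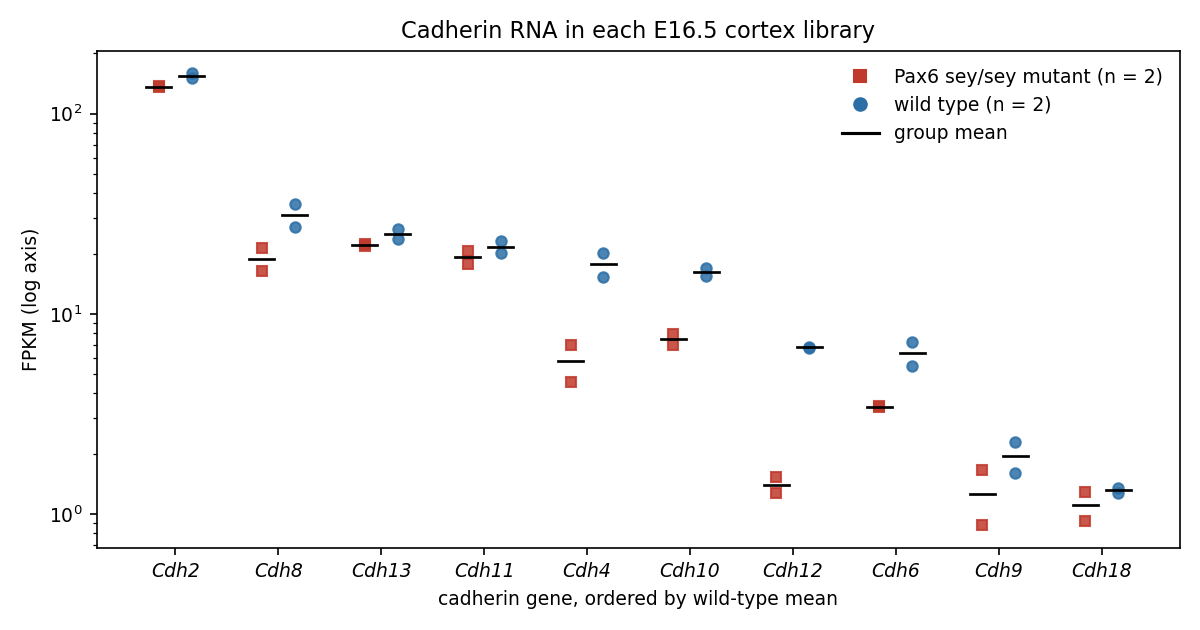
FPKM on a log axis of the 10 cadherin genes in each library, ordered by wild-type mean, with Pax6 sey/sey mutants as squares on the left of each pair, wild types as circles on the right, and a line at each group mean (n = 2). Cdh12 lies at 1.53 and 1.28 FPKM in mutants and at 6.81 and 6.77 FPKM in wild types, while Cdh2 lies between 135 and 159 FPKM.

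Both mutants lay below both wild types for 7 of the 10 genes, against 25.8% of all tested genes, and above them for 0, against 25.8%. The groups overlapped for Cdh9, Cdh11 and Cdh18. By an exact permutation test (two-sided) p was 0.333 for each of the 7, the lowest value possible with 2 libraries per genotype, and 0.667 for the other 3.

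Cdh2, on chromosome 18, codes for N-cadherin, the main cadherin of radial glial junctions and of neurons. It had 135 and 138 FPKM in mutants, against 151 and 159 FPKM in wild types, a log2 fold change of -0.18 (95% interval -0.33 to -0.04, limma adjusted p = 0.181). It was the highest of the 10 in every library. Its share of the summed FPKM of all 10 was 61.6% and 64.2% in mutants and 55.7% and 53.8% in wild types.

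Cdh4 codes for R-cadherin, which in mouse marks cortical cells on the pallial side of the border with the striatum. It had 4.57 and 7.01 FPKM in mutants, against 15.3 and 20.03 FPKM in wild types, and both mutants were well below the lower wild type. The mutant mean of 5.79 ± 1.73 FPKM was 32.8% of the wild-type mean of 17.7 ± 3.32 FPKM (SD, n = 2 each). The log2 fold change was -1.55 (SE 0.24, 95% interval -2.15 to -0.94, limma adjusted p = 0.0418).

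The ratio of Cdh4 to Cdh2 within a library, which cancels scaling between libraries, was 0.0338 and 0.0509 in mutants and 0.102 and 0.126 in wild types. Both mutants lay below both wild types, with an exact two-sided permutation p of 0.333, the smallest possible here.

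Cdh12, known as brain cadherin, showed the largest fall among the 10. It had 1.53 and 1.28 FPKM in mutants, against 6.81 and 6.77 FPKM in wild types, so the mutant mean was 20.6% of the wild-type mean. The libraries of each genotype lay close together and far from those of the other. The log2 fold change was -1.94 (SE 0.17, 95% interval -2.38 to -1.51, limma adjusted p = 0.0154), which ranked 31 among the 225 genes that fell over the whole table.

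Cdh10, the chromosome 15 neighbour of Cdh12 and in mouse a cadherin of hippocampal synapses, also fell. It had 7.91 and 6.99 FPKM in mutants, against 16.997 and 15.5 FPKM in wild types, with no overlap. The mutant mean was 45.9% of the wild-type mean, and the log2 fold change was -1.08 (SE 0.12, 95% interval -1.38 to -0.77, limma adjusted p = 0.0245).

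The ratio of these neighbours was lower in the mutants. Cdh12 made 0.193 and 0.183 of the Cdh10 level in the mutant libraries and 0.401 and 0.437 in the wild types. On the scale of log2(FPKM + 0.5) the difference in this ratio was -0.87, mutant minus wild type (exact two-sided permutation p = 0.333, the smallest possible).

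With 1 library fewer, few genes of the whole table passed. Limma then called 7 to 59 genes, against 536 with all 4 libraries. Without mutant library 1, mutant library 2, wild-type library 1 or wild-type library 2 in turn, which leaves 1 library in a group, 0 of the 10 genes passed. Over those 4 fits the limma adjusted p ran from 0.0675 to 0.173 for Cdh12, from 0.0824 to 0.179 for Cdh10 and from 0.119 to 0.248 for Cdh4, and the log2 fold change from -2.04 to -1.85 for Cdh12, from -1.16 to -0.99 for Cdh10 and from -1.83 to -1.26 for Cdh4.

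The other 3 genes on chromosome 15 did not pass the test. Cdh6, which in mouse marks the striatal side of the border that Cdh4 marks from the cortex, had 3.40 and 3.47 FPKM in mutants, against 7.21 and 5.51 FPKM in wild types. The groups did not overlap, and the log2 fold change was -0.79 (95% interval -1.25 to -0.33, limma adjusted p = 0.0984).

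Cdh9, a cadherin of hippocampal mossy fibre synapses in mouse, had 1.65 and 0.878 FPKM in mutants and 1.61 and 2.29 FPKM in wild types. The groups overlapped, since mutant library 1 was above wild-type library 1, and the interval of the log2 fold change, -1.29 to 0.30, spans 0.

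Cdh18 had the lowest mean of the 10 in each genotype, at 0.925 and 1.28 FPKM in mutants and 1.35 and 1.28 FPKM in wild types. For a gene of its exon length about 1 fragment was worth 0.0208 to 0.0307 FPKM, so counting error is not negligible at this level. The groups overlapped, and the interval of the log2 fold change was -0.79 to 0.42, which spans 0.

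**Figure D2:**
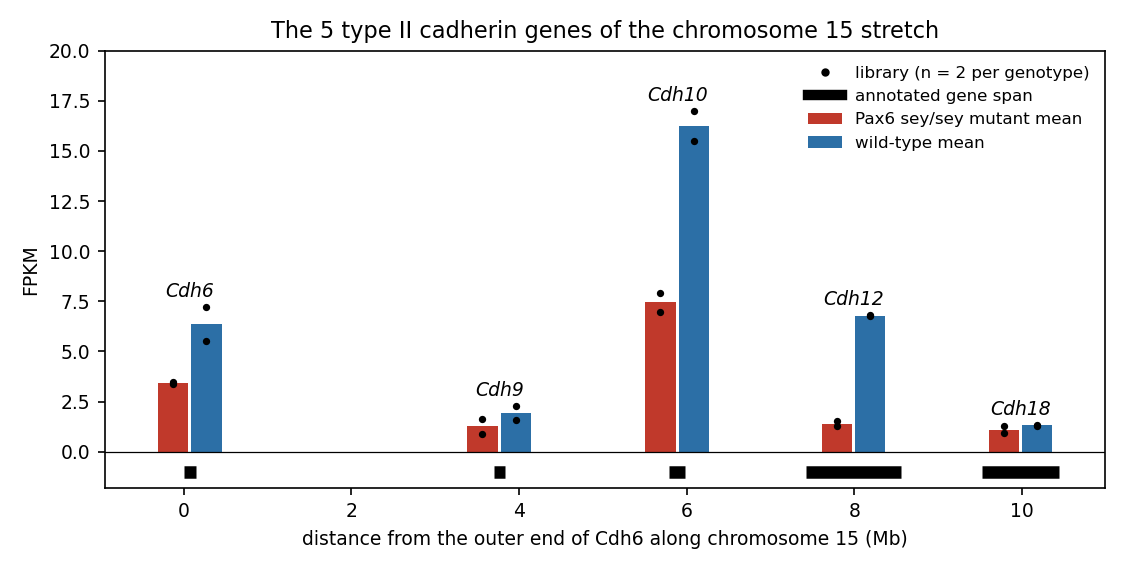
Mean FPKM of the 5 chromosome 15 cadherins, in mutants (left bar of each pair) and wild types (right bar), with a point for each library (n = 2 per genotype) and a black block for each annotated gene span, placed by distance in Mb from the outer end of Cdh6. Cdh10 and Cdh12, in the middle and to its right, fell, with 7.45 and 1.40 FPKM in mutants against 16.2 and 6.79 FPKM in wild types, while Cdh18 beyond them had 1.10 and 1.31 FPKM.

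The summed FPKM of the 5 chromosome 15 genes was 15.4 and 13.9 in mutants and 34.0 and 31.3 in wild types. The table lists 7 genes within this stretch of 10.4 Mb, and the other 2, C030047K22Rik and Acot10, were at or below 0.286 FPKM in every library and were not tested.

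On chromosome 8, Cdh8, a cadherin of cortical and striatal neurons, had 21.4 and 16.3 FPKM in mutants, against 27.0 and 35.5 FPKM in wild types. The groups did not overlap, and the log2 fold change of -0.71 did not pass (95% interval -1.19 to -0.24, limma adjusted p = 0.130). In the deposited table its locus also holds the noncoding gene A330008L17Rik, with 2.22 and 1.31 FPKM in mutants and 2.60 and 3.50 FPKM in wild types.

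Cdh11, first known from osteoblasts and also expressed by mesenchymal cells, had 20.5 and 17.8 FPKM in mutants and 20.1 and 23.1 FPKM in wild types. The groups overlapped, and the interval was -0.47 to 0.13 on the log2 scale (limma adjusted p = 0.503). Markers of meningeal fibroblasts, which are mesenchymal, summed over 8 genes to 30.8 and 7.56 FPKM in mutants, against 4.91 and 3.31 FPKM in wild types, so mutant library 1 stood far above mutant library 2. Of the 6 that were tested limma called 0 (4 higher and 0 lower at an unadjusted p under 0.05), and 0 of the 8 were listed at 0 in all libraries. Their part in the Cdh11 level was not tested.

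Within a library Cdh11 stood at 0.959 and 1.09 of the Cdh8 level in mutants, against 0.743 and 0.652 in wild types. The 2 mutant ratios were above both wild-type ratios (exact two-sided permutation p = 0.333, the smallest possible).

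Cdh13, expressed by neurons and vessel cells, had 22.3 and 21.8 FPKM in mutants and 23.6 and 26.4 FPKM in wild types. The mutants were both lower by a small margin, and the log2 fold change was -0.18 (95% interval -0.41 to 0.06, limma adjusted p = 0.365). Endothelial markers summed over 6 genes to 63.5 and 50.2 FPKM in mutants and 43.9 and 43.4 FPKM in wild types, with 0 of 6 called by limma (3 higher and 0 lower at an unadjusted p under 0.05), and their part was not tested.

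**Figure D3:**
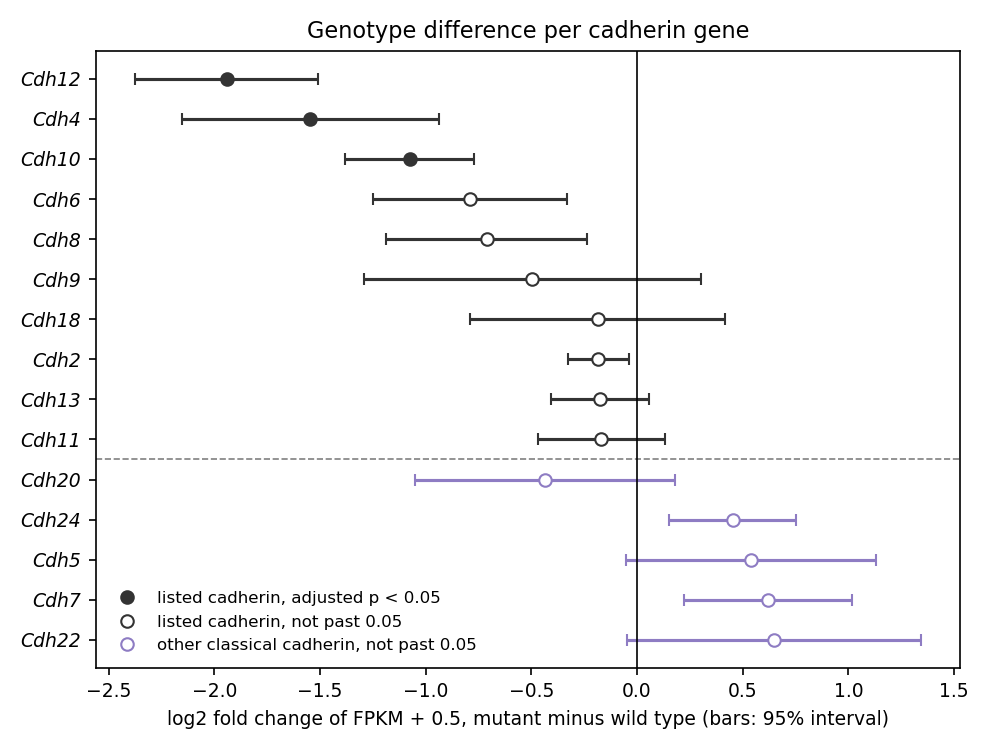
Log2 fold change of FPKM + 0.5, mutant minus wild type, with its 95% interval from limma (2 libraries per genotype), for the 10 cadherins above the dashed line and 5 other classical cadherins below it; filled points passed an adjusted p of 0.05. Cdh12, Cdh4 and Cdh10 lie at -1.94, -1.55 and -1.08, and 4 of the 5 others lie above 0. Of those 4, Cdh22 passed the low-value filter only through the mutant libraries.

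The order of levels differed between genotypes in the middle of the range. In mutants the order from high to low was Cdh2, Cdh13, Cdh11, Cdh8, Cdh10, Cdh4, Cdh6, Cdh12, Cdh9 and Cdh18, and in wild types it was Cdh2, Cdh8, Cdh13, Cdh11, Cdh4, Cdh10, Cdh12, Cdh6, Cdh9 and Cdh18. Neighbours whose libraries overlapped were Cdh11 and Cdh8, Cdh10 and Cdh4, Cdh12 and Cdh9, and Cdh9 and Cdh18 in mutants, and Cdh4 and Cdh10 and also Cdh12 and Cdh6 in wild types, so their order is not settled.

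The 7 listed type II genes together had 57.4 and 48.0 FPKM in mutants, against 81.1 and 89.9 FPKM in wild types. The mutant mean was 0.616 of the wild-type mean, and the mix of genes differed too. Cdh11 made up 35.8% and 37.1% of this sum in mutants, against 24.8% and 25.7% in wild types. Cdh12 made up 2.66% in both mutants, against 8.40% and 7.53% in wild types. The share of Cdh8 overlapped between genotypes, at 37.3% and 34.0% in mutants and 33.3% and 39.4% in wild types.

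**Figure D4:**
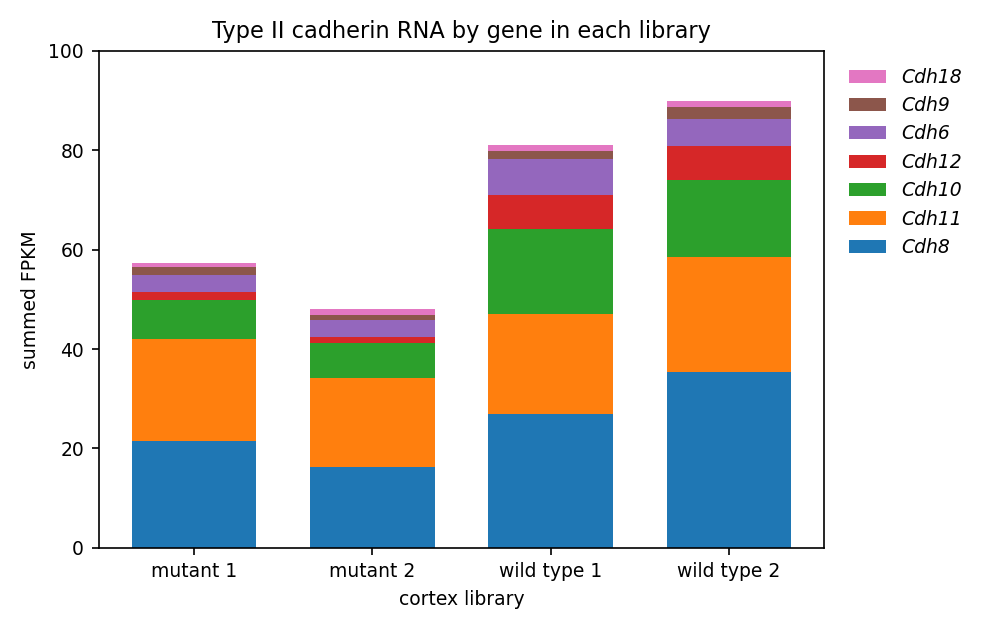
Summed FPKM of the 7 listed type II cadherins in each library, stacked by gene, with mutants on the left and wild types on the right. The stacks reach 57.4 and 48.0 FPKM in mutants and 81.1 and 89.9 FPKM in wild types, and Cdh8 and Cdh11 form most of each.

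No other classical cadherin passed the test, and most of those measured lay above 0. Of 9 further genes, the table held 8 and the filter kept 5, and limma called 0 of 5 in either direction, with 2 higher and 0 lower at an unadjusted p under 0.05. Cdh5, the endothelial VE-cadherin, had 5.64 and 3.71 FPKM in mutants, against 3.12 and 2.88 FPKM in wild types. Cdh7, a type II gene, had 8.17 and 8.13 FPKM in mutants, against 5.75 and 4.57 FPKM in wild types (log2 fold change 0.62, 95% interval 0.22 to 1.02, limma adjusted p = 0.121).

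Cdh24 had 12.1 and 13.0 FPKM in mutants, against 8.48 and 9.62 FPKM in wild types (log2 fold change 0.45, limma adjusted p = 0.128). Cdh22 was at 0.743 and 0.987 FPKM in mutants and 0.442 and 0.299 FPKM in wild types, and Cdh20 at 1.03 and 1.004 FPKM in mutants and 1.84 and 1.304 FPKM in wild types. Both mutants were above both wild types for Cdh5, Cdh7, Cdh22 and Cdh24 and below them for Cdh20. The median of the 5 fold changes was 0.54 on the log2 scale. Cdh22 reached the filter level of 0.5 FPKM only in the mutant libraries. Its place in these counts and in the median thus follows from its being higher there.

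Among 26 catenins and junction partners, 25 were tested, 1 fell and 0 rose by limma, with 3 lower and 2 higher at an unadjusted p under 0.05. The median fold change was -0.02 on the log2 scale. The gene that fell was Nectin3, which codes for an adhesion protein of migrating cortical neurons that works with afadin and N-cadherin. It had 11.1 and 10.5 FPKM in mutants, against 17.8 and 17.03 FPKM in wild types (log2 fold change -0.67, SE 0.09, limma adjusted p = 0.0357), and it was not called without any 1 of the 4 libraries.

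No catenin gene passed the test, and the highest genes of the list differed little between genotypes. Ctnnb1, which codes for beta-catenin, had 271 and 273 FPKM in mutants and 284 and 303 FPKM in wild types, with a log2 interval of -0.26 to 0.04. Ctnna2, the neuronal alpha-catenin gene, had 70.6 and 72.3 FPKM in mutants and 63.5 and 62.5 FPKM in wild types. Afdn, which codes for afadin, had 91.9 and 89.9 FPKM in mutants and 78.5 and 86.1 FPKM in wild types, and neither it nor Ctnna2 passed (limma adjusted p = 0.338 and 0.191). Rap1b, a small GTPase gene next in level by the mean over all 4 libraries, had 49.6 and 48.1 FPKM in mutants and 51.7 and 49.5 FPKM in wild types.

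Sums of cell type markers differed between genotypes in both directions, and in tissue RNA fewer cells of a type and less RNA per cell cannot be told apart. Counts of markers are to be read beside the shares over all tested genes. Limma called 1.46% of those genes lower and 2.02% higher. Both mutants lay below both wild types for 25.8%. The glutamatergic sum was 0.567 of its wild-type level in mutants, and limma called 6 of the 7 genes lower, with both mutants below both wild types for all 7. Markers of upper-layer neurons summed to 361 and 359 FPKM in mutants, against 641 and 644 FPKM in wild types, and limma called 7 of the 10 lower, with both mutants below both wild types for all 10. Those of intermediate progenitors summed to 118 and 110 FPKM in mutants and 192 and 228 FPKM in wild types, and limma called 5 of 7 tested genes lower and 0 higher. Insm1, at 76.3 and 77.4 FPKM in mutants and 59.6 and 64.0 FPKM in wild types, was the largest part of that sum in mutants and was not called.

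These ratios of marker sums, mutant mean over wild-type mean, lay between 0.541 and 0.567. A sum follows its highest genes. Neurog1, below the filter, was at 0 FPKM in both mutants and at 0.262 and 0.490 FPKM in wild types. The tested markers in these 3 lists had ratios between 0.0549 for Neurog2 and 1.24 for Insm1, with 0.155 for Unc5d and 0.209 for Eomes. The ratios of Cdh12, at 0.206, Cdh4, at 0.328, and Cdh10, at 0.459, lay within that range. So did those of the rest of the 10 listed cadherins, up to 0.887 for Cdh11. The range is wide, so lying within it does not single out any of the 10. Of the other classical cadherins, Cdh20 lay within it at 0.648. Cdh5, Cdh7, Cdh22 and Cdh24 lay above it, at 1.56, 1.58, 2.33 and 1.39. Markers of deep-layer neurons had a ratio of sums of 0.843, and limma called 2 of 8 lower, Tle4 and Tbr1, and 0 higher. Tbr1 is also in the glutamatergic list. At an unadjusted limma p under 0.05, 2 deep-layer genes were higher, Foxp2 and Bcl11b, and 2 were lower. Foxp2 had 15.2 and 24.3 FPKM in mutants and 8.11 and 7.37 FPKM in wild types. Bcl11b had 36.6 and 42.9 FPKM in mutants and 29.5 and 31.5 FPKM in wild types. The ratio was 0.955 for radial glia, where limma called 2 of 8 higher, Sox2 and Sox9, and 0 lower. At an unadjusted p under 0.05, 3 were higher and 1 lower. The lower gene was Slc1a3, with 23.8 and 19.5 FPKM in mutants and 34.5 and 31.2 FPKM in wild types. Fabp7, with 526 and 525 FPKM in mutants and 719 and 540 FPKM in wild types, made up most of the radial glia sum and was not called. Markers of interneurons summed to 865 and 948 FPKM in mutants, against 330 and 246 FPKM in wild types, and limma called 9 of 10 higher, and none of the genes in these lists was at 0 in all libraries. The ratio was 1.61 for markers of Cajal-Retzius cells, with 2 of 5 tested genes called higher by limma, 1.23 for pericytes, 0.879 for microglia, 0.905 for striatal projection neurons, 0.930 for subplate and 1.08 for blood, where limma called 0 genes in the last 5 lists. At an unadjusted p under 0.05 those 5 held 1 higher pericyte gene, 2 lower microglial genes and 1 lower striatal gene. The part of these cells in the cadherin levels was not tested.

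The authors' deposited table gives its own ratio and p-value for each gene, and of the 10 cadherins there Cdh4 alone had a p under 0.05. The authors' deposited table lists Cdh4 at a ratio of 0.328, mutant over wild type, with p = 0.0227, Cdh12 at 0.206 with p = 0.180 and Cdh10 at 0.459 with p = 0.108. A p under 0.05 is given for 1.83% of genes in the authors' deposited table, and a p of 1 for 61.0%.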

How the data were processed

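Per the file headers, the authors deposited 1 FPKM value per gene for each of the 4 cortex libraries. TopHat2 2.0.9, Cufflinks 2.2.1, edgeR and the builds GRCm38.p4 and mm10 are named without roles in the submitters' processing notes; strand use is not stated. The deposited table's fold (a ratio of group FPKM) and p-value come from the authors, and the test behind the p-value is not stated. FPKM keeps no fragment totals, so only relative depth could be read, from ratios of the lowest genes. The filter required 0.5 FPKM or more in 2 libraries. Values were transformed to log2(FPKM + 0.5) and fitted with limma 3.58.1 in R 4.3.3 (trended eBayes, Benjamini-Hochberg, threshold 0.05), after tests on simulated data. Fold changes on this scale understate changes of low genes. Exact permutation tests used scipy 1.17.1.

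The members, lists and tests were chosen with earlier results of these data known. All 10 members are named; so are the other classical cadherins above the filter, and of the partner list those called plus the 4 highest. Gene spans are from GENCODE M21 on GRCm38. Exons of Cdh8, Cdh9 and Cdh12 each overlap 1 other annotated gene, on the opposite strand for Cdh8 and Cdh9, where strand use matters, and on the same strand for Cdh12, so their values may include its fragments. Replicate numbers are only names: deviations of same-numbered libraries correlated at 0.049. Alternatives were other pseudocounts, filters and scalings, no trend, the replicate block, and leaving out each library.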

Additional observations from a re-analysis of the deposited data

How the results depend on the processing

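Over 12 alternatives the fold changes of the 10 cadherins gave 120 values, all below 0. Of these, 103 stayed on the same side of the threshold and 17 lost a call. All 17 belonged to Cdh4, Cdh10 and Cdh12, since the other 7 genes had no call to lose. With no filter 0 cadherins were called, and adjusted p was 0.0626 for Cdh12 (-1.94), 0.0662 for Cdh10 (-1.08) and 0.107 for Cdh4 (-1.55). Over all genes, 21 were then lower and 40 were higher. Without the mean-variance trend 1 cadherin was called, Cdh12; adjusted p was 0.0697 for Cdh10 (-1.08) and 0.107 for Cdh4 (-1.55), and 20 genes were lower and 34 higher over the table. The call of Nectin3 was lost in both fits (0 catenins and partners lower). With the replicate number as a block 3 cadherins were still called, 0 catenins and partners were lower, and 153 genes were lower and 221 higher over the table. Leaving out 1 library gave 0 cadherins and 0 catenins and partners lower, 1 to 28 genes lower and 6 to 31 higher over the table, and fold changes of -2.04 to -1.85 for Cdh12, -1.83 to -1.26 for Cdh4 and -1.16 to -0.99 for Cdh10. These fits have 1 library fewer; for the other lost calls the cause was not tested. The Cdh12 to Cdh10 ratio difference was -1.09 with a pseudocount of 0.1 and -0.67 with 1. Cdh9 and Cdh18, with group means of 1.10 to 1.95 FPKM, rest on fewer fragments than the other 8.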
